A study of Mus musculus with 31 samples.

Results

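The genes described here are 10 members of the prostaglandin and leukotriene pathways, taken by gene symbol from the 24421 symbols in the count files: Pla2g2d, Ptgs1, Ptgs2, Ptges, Hpgds, Hpgd, Alox5, Alox5ap, Ltc4s and Ltb4r1. All 10 were found and all 10 passed the filter on low counts. They were read in dendritic cells and macrophages of the heart from Balb/c mice, 8 to 12 weeks of age, of which some were in steady state (SS) and others had a myocardial infarction (MI) from a left anterior descending coronary artery that was tied off for good. Heart cells freed with Liberase and DNase were sorted by flow cytometry into conventional dendritic cells of both kinds, cDC1 and cDC2, and monocyte-derived cells, which are named moDCs where CD11c-positive and macrophages where CD11c-negative. The 31 libraries make 8 groups of 4, except MI cDC2 with 3. No source used here gives the time after ligation, the sex of the mice, the antibodies of the sort or whether hearts were pooled, and SS hearts are not described as sham operated, so surgery, infarction and any difference in preparing the hearts of the 2 states cannot be told apart. The replicates are called independent without a statement that each is a separate animal, so p-values measure the spread between these samples.

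Prostaglandins and leukotrienes are short-lived lipid signals made from arachidonic acid, which phospholipases A2 free from membranes. Cyclooxygenases turn it into the parent prostaglandin, which terminal synthases shape into the single prostaglandins, and a dehydrogenase in the cytosol ends their action. Lipoxygenase and its helper protein make the parent leukotriene, which is either hydrolysed to leukotriene B4, an attractant of leukocytes, or joined to glutathione to give the cysteinyl leukotrienes, and resident macrophages, dendritic cells and mast cells are known sources of both families.

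Each library held 9148624 to 16531349 reads in genes, from which CPM, reads scaled to equal library totals with TMM factors, were computed. The sort labels could be seen in the counts: Xcr1, the chemokine receptor that marks cDC1, lay at 789 to 1040 CPM in cDC1 libraries of both states and at no more than 5.20 CPM elsewhere, and Itgax, which codes for CD11c, at 5.20 to 11.3 CPM in SS macrophages against 206 to 409 CPM in SS moDCs. In MI Itgax was at 23.9 to 61.9 CPM in macrophages, above all SS macrophage libraries, and at 422 to 562 CPM in moDCs. A sum of 6 moDC markers (Itgax, Ccr2, Fcgr1, Cd209a, Ly6c2 and Itgam) was likewise higher in MI macrophages (3035 to 3544 CPM) than in SS macrophages (1019 to 1241 CPM). In moDCs it was 2527 to 3860 CPM in SS and 4382 to 5147 CPM in MI. Of these markers Cd209a went the other way, at 9.44 to 22.7 CPM in SS and 0.928 to 8.47 CPM in MI macrophages, and Ly6c2 overlapped. Itgax, Ccr2, Fcgr1 and Itgam were higher in MI macrophages, and Fcgr1 is also among the macrophage markers below. Macrophage genes were not confined to macrophages. The summed level of 7 macrophage markers (Adgre1, Csf1r, Mertk, Fcgr1, Cd68, Lyz2 and C1qa) in cDC2 libraries was 17529 to 28515 CPM in SS and 4057 to 6920 CPM in MI, most of it Lyz2, while C1qa lay at 294 to 714 CPM in SS and 85.9 to 229 CPM in MI. In cDC2 Adgre1, Csf1r, Lyz2 and C1qa were lower in every MI library than in every SS library, while Cd68 and Mertk overlapped. Fcgr1 of the same list went the other way there, at 22.5 to 50.4 CPM in SS and 72.5 to 102 CPM in MI. In macrophages the sum of all 7 was 28895 to 35670 CPM in SS and 25017 to 29737 CPM in MI. In bulk libraries fewer cells of a type and less RNA per cell cannot be told apart.

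After MI, 5 of the 10 members changed in macrophages by edgeR's quasi-likelihood test (Benjamini-Hochberg adjusted p under 0.05), against 7.39% of the 13039 genes tested. Of these, 2 were higher and 3 lower, against 4.01% and 3.37% of all genes. In moDCs 4 members changed, all lower, where 4.84% of all genes changed, 1.52% higher and 3.32% lower. In cDC2 5 changed, 2 higher and 3 lower, beside 11.0% of all genes, 4.41% higher and 6.63% lower. In cDC1 3 changed, all lower, beside 8.88% of all genes, 2.16% higher and 6.73% lower. Of these 3, Alox5 rested on 31 reads in SS and 2 in MI, and Ltc4s on 57 and 9. In a fit of the cDC1 libraries alone both had too few reads to be tested, and 1 member passed. Hpgd and Pla2g2d fell in macrophages, moDCs and cDC2. Alox5 fell in macrophages and moDCs, and Ptgs1 in moDCs and cDC2. Ptgs2 rose in macrophages and cDC2, Ltb4r1 in macrophages and Hpgds in cDC2. The median log2 difference of the members (MI minus SS) was -0.34 in macrophages, -0.52 in moDCs, -0.73 in cDC2 and -0.48 in cDC1, beside medians of -0.03 over all genes tested in each of the 4. Alox5ap and Ptges passed the test in none of the 4 cell types. The members were chosen with earlier results of these data known, so counts and medians here and below do not test the set against all genes.

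**Figure D1:**
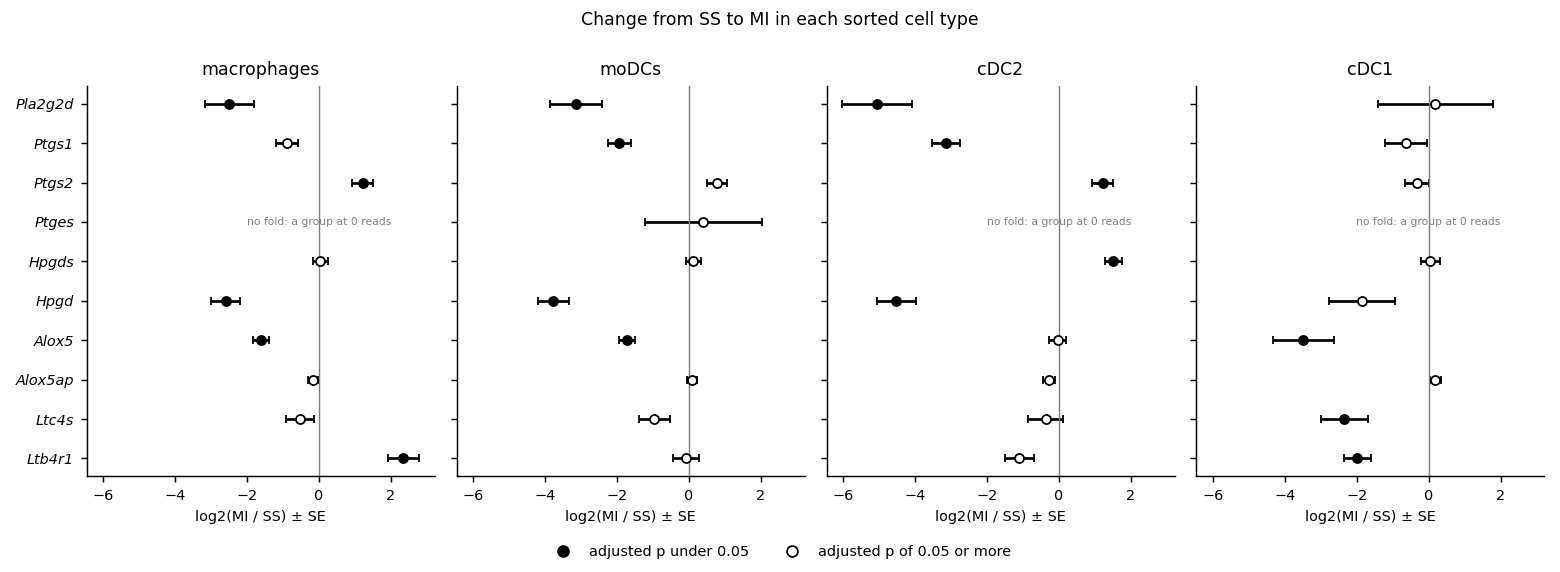
Log2 ratio of MI to SS (x axis) of each gene (y axis) in the 4 sorted cell types, as points with standard errors from edgeR; filled points had an adjusted p under 0.05, and no fold is drawn where a group had 0 reads. Filled points for Hpgd and Pla2g2d lie left of 0 in macrophages, moDCs and cDC2, and filled points for Ptgs2 lie right of 0 in macrophages and cDC2; the point of Alox5 in cDC1 rests on 2 reads in MI.

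The stretches of 250 bases before the RefSeq transcript starts (build GRCm38.p6, plus strand in each case, 5′ to 3′) are shown for the 3 genes that fell together in moDCs and cDC2 and for Ptgs2, which rose in cDC2. Capitals mark matches on either strand to GAGGAA, the core bound by the myeloid factor PU.1, or to GGGCGG, the GC box bound by Sp1.
Hpgd (chr8:56294302-56294551): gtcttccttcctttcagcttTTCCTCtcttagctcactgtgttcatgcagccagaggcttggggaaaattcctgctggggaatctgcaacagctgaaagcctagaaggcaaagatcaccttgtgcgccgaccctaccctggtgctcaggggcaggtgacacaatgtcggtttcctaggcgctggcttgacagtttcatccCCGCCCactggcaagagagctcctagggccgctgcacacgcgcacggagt
Pla2g2d (chr4:138775485-138775734): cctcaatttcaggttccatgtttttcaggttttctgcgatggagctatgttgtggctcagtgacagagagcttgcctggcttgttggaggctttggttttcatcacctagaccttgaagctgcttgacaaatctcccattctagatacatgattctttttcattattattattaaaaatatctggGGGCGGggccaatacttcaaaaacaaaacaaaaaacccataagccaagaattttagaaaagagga
Ptgs1 (chr2:36230176-36230425): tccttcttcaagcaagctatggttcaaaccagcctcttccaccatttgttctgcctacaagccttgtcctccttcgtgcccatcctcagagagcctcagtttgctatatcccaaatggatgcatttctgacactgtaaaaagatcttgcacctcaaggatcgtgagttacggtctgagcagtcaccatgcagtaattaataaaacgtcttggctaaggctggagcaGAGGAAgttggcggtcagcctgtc
Ptgs2 (chr1:150099781-150100030): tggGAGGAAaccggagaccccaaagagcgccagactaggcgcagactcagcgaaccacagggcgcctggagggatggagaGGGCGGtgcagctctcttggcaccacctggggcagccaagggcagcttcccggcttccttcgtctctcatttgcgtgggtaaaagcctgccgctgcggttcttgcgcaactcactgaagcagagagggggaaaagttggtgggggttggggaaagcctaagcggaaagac
In Hpgd the capitals mark GAGGAA on the minus strand, beginning 230 bases before the start, and GGGCGG on the minus strand, beginning 50 bases before it. Pla2g2d holds GGGCGG on the plus strand, 65 bases before the start, and Ptgs1 holds GAGGAA on the plus strand, 24 bases before it. Ptgs2 holds both on the plus strand, GAGGAA 247 and GGGCGG 170 bases before the start. GAGGAA is in 23.4% and GGGCGG in 33.0% of the 32536 different promoter stretches of this length in the table, so either match is common. TATAAA (12.3% of promoters), CACGTG (6.04%), TGACG (17.9%), ACGTG (16.7%, part of every CACGTG) and TGANTCA (6.73%) had no match in the 4 stretches. Bases past the RefSeq starts were not searched, so a missing match holds for these 250 bases only and not for the promoter as a whole. A match is a string of letters, not a measured binding site.

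Levels of different genes were compared per length, as RPKM over merged exons. In SS macrophages Hpgd stood first of the 10, at 605 ± 91.8 RPKM (SD, n = 4), ahead of Alox5ap at 218 ± 40.9, Alox5 at 86.1 ± 10.5 and Ptgs1 at 76.9 ± 8.48 RPKM. In the other 7 groups Alox5ap had the highest mean. Ltb4r1 was next in SS cDC2, at 325 ± 58.9 RPKM. Of the cyclooxygenases, Ptgs1 exceeded Ptgs2 in SS macrophages (76.9 ± 8.48 against 13.05 ± 4.02 RPKM), and in MI cDC2 the order was the other way (2.60 ± 0.681 against 87.9 ± 12.3 RPKM, n = 3). cDC1 carried Alox5ap and Ltb4r1 and little else of the set: the other 8 members had group means of 1.52 RPKM or less there in both states.

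**Figure D2:**
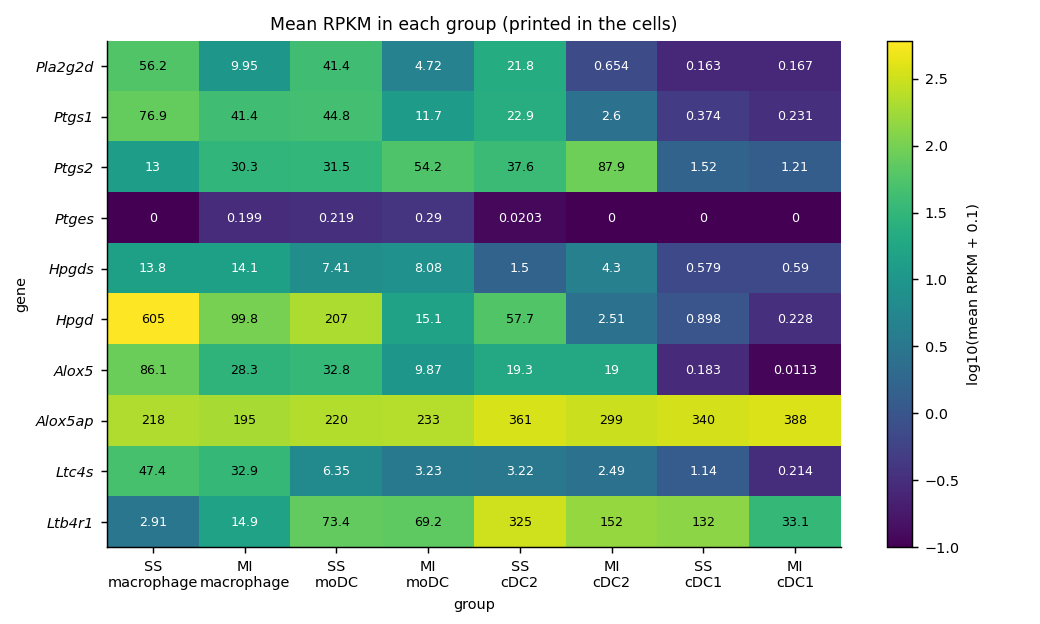
Mean RPKM of each gene (rows) in the 8 groups (columns), with the value printed in each cell and colour giving log10(mean RPKM + 0.1). Hpgd in SS macrophages is the highest cell at 605 RPKM, Alox5ap is high in all columns, and Ptges is at or near 0 throughout.

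Hpgd codes for the dehydrogenase that inactivates prostaglandins, among them prostaglandin E2 (chr8:56294585-56321043, plus strand, GRCm38). In SS macrophages the 4 libraries had 877, 1204, 1088 and 907 CPM, and in MI macrophages 136, 221, 184 and 130.4 CPM. Every MI library lay below every SS library, and the level fell 6.07-fold, or by 2.60 ± 0.40 on the log2 scale (SE; edgeR adjusted p = 1.24e-04). In moDCs the SS libraries had 463, 491, 199.5 and 242 CPM and the MI libraries 25.3, 29.8, 20.6 and 25.9 CPM. Replicates 1 and 2 were the high SS libraries, the groups did not overlap, and the fall was 13.7-fold (edgeR adjusted p = 3.74e-06). In cDC2 the values were 125, 126, 66.4 and 71.4 CPM in SS and 2.07, 4.27 and 6.36 CPM in MI. Here the groups were again apart, with a fall of 22.9-fold (log2 -4.52 ± 0.54, edgeR adjusted p = 2.13e-06). In cDC1 the gene was at 2.63 CPM or less in all 8 libraries, the states overlapped, and no change passed (edgeR adjusted p = 0.252). The MI effects were not shown to differ among the 4 cell types (F test, edgeR adjusted p = 0.151). In both states the order was macrophages, moDCs, cDC2, cDC1, and each neighbour differed from the next, with edgeR adjusted p of 0.00772, 0.00176 and 9.42e-10 in SS and 4.56e-05, 0.00110 and 0.00171 in MI.

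Pla2g2d codes for a secreted phospholipase A2 that is made by dendritic cells and macrophages (chr4:138775735-138782046, plus strand). In macrophages the SS libraries had 103, 139, 134 and 128 CPM and the MI libraries 13.5, 34.3, 14.2 and 27.3 CPM. The states did not overlap, and the fall was 5.64-fold (edgeR adjusted p = 0.0265). That call ended when MI replicate 1 (adjusted p = 0.0852), MI replicate 3 (0.0808) or SS replicate 2 (0.0563) was left out, and against SS replicates 1 and 4 alone (0.0874). In moDCs the values were 87.3, 158, 58.0 and 68.9 CPM in SS and 1.94, 14.5, 14.8 and 11.2 CPM in MI, again apart, and the fall was 8.79-fold (edgeR adjusted p = 0.00917; 0.0574 against SS replicates 1 and 4 alone). In cDC2 the SS libraries were wide apart, at 4.32, 22.3, 132 and 37.1 CPM, and the MI libraries had 0, 2.38 and 2.02 CPM. The lowest SS library still exceeded the highest MI library, and the fitted fall was 33.3-fold (edgeR adjusted p = 8.22e-04). Its size leaned on single libraries: the fall was 14.5-fold without SS replicate 3, 22.0-fold without MI replicate 1, 14.1-fold against SS replicates 1 and 4 alone and 52.5-fold against SS replicates 2 and 3 alone. In the same SS cDC2 libraries the summed level of 8 genes of mature migratory dendritic cells, Ccr7, Fscn1 and Ccl22 among them, was lowest in replicate 1 (144 CPM) and highest in replicate 3 (1540 CPM), as for Pla2g2d, while in MI cDC2 that sum was 687 to 2341 CPM; the part of such cells in the result was not tested. cDC1 had 1.07 CPM or less of Pla2g2d in all libraries (log2 0.19 ± 1.60, edgeR adjusted p = 0.983). In SS, macrophages, moDCs and cDC2 did not differ between neighbours (edgeR adjusted p = 0.748 and 0.382), and cDC2 exceeded cDC1 (3.83e-06). In MI no neighbours differed (adjusted p = 0.373, 0.0547 and 0.325), though macrophages exceeded cDC2 (edgeR adjusted p = 0.00259).

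Ptgs1, the gene of the constitutive cyclooxygenase COX-1 (chr2:36230426-36252272, plus strand), fell in moDCs and cDC2. In moDCs the SS libraries had 221, 229, 121 and 124 CPM and the MI libraries 51.7, 45.0, 37.7 and 47.4 CPM. Replicates 1 and 2 were high in SS, as for Hpgd, all MI libraries were lower than all SS libraries, and the fall was 3.83-fold (edgeR adjusted p = 3.74e-04). In cDC2 the values were 59.1, 110.2, 105 and 81.9 CPM in SS and 8.10, 9.13 and 13.1 CPM in MI. The groups were far apart, and the fall was 8.80-fold (log2 -3.14 ± 0.39, edgeR adjusted p = 2.69e-06). In macrophages the 4 SS libraries had 284, 282, 281 and 348 CPM and the MI libraries 183, 165, 135 and 161 CPM. These did not overlap either, but the difference of -0.89 ± 0.31 on the log2 scale missed the threshold with all 31 libraries in the fit (edgeR adjusted p = 0.0832) and passed it with the 8 macrophage libraries alone (6.38e-04) and against SS replicates 1 and 4 alone (0.0347). cDC1 had 3.70 CPM or less (adjusted p = 0.629). The MI effects differed among the cell types (F test, edgeR adjusted p = 0.0116, against 6.80% of all genes tested), with a smaller fall in macrophages than in cDC2 (difference of log2 effects 2.25 ± 0.48, adjusted p = 0.00480). In SS macrophages and moDCs were not shown to differ (adjusted p = 0.104), moDCs exceeded cDC2 (0.0351) and cDC2 exceeded cDC1 (7.05e-12). In MI each step of that order passed (edgeR adjusted p = 2.32e-04, 2.19e-04 and 2.36e-06). Exons of Ptgs1 share 148 bp with the predicted gene Gm43621 on the other strand, and since no source used here says whether counting used strand, reads of that stretch cannot be told apart.

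Other levels moved beside these 3 falls. In cDC2 the macrophage marker sum given above was lower in every MI library than in every SS library, though Fcgr1 in it was higher. A sum of 8 genes of resident cardiac macrophages (Lyve1, Folr2, Timd4, Cd163, Vsig4, Cbr2, Mrc1 and F13a1) went there from 621 to 1017 to 329.9 to 374 CPM. In that list Lyve1 and Folr2 were nearly absent from cDC2, at 0.84 and 5.91 CPM at most, and Timd4 was higher in MI (75.7 to 131 CPM) than in SS (11.3 to 47.4 CPM). The resident sum also went down in macrophages, from 5347 to 6467 to 2578 to 3275 CPM, and in moDCs, from 1006 to 1380 to 487 to 521 CPM, with reads for all 8 genes in each group. A platelet list of 8 genes, of interest because platelets carry COX-1, summed to 473 to 769 CPM in SS and 161 to 290.5 CPM in MI macrophages, nearly all of it Pf4, with Gp1ba and Treml1 at 0 reads in both. The platelet sum was also lower in MI without overlap in moDCs (103 to 193 CPM in SS, 32.3 to 50.7 CPM in MI, with Gp6 at 0 reads in both) and in cDC2 (34.1 to 58.2 and 12.6 to 18.3 CPM, with Gp1ba and Gp6 at 0 in both and Gp9 and Treml1 at 0 in MI), where Ptgs1 fell. In SS moDCs mural cell genes (38.6 to 343 CPM for 8 genes) and endothelial genes (133 to 429 CPM for 10 genes) exceeded those in MI moDCs (14.1 to 17.5 and 68.7 to 98.5 CPM). The part of these cells in the falls of Hpgd, Pla2g2d and Ptgs1, and of Alox5 described further on, was not tested.

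Ptgs2, the gene of the inducible cyclooxygenase COX-2 (chr1:150100031-150108227, plus strand), went the other way. In macrophages the libraries had 47.8, 66.3, 42.3 and 82.7 CPM in SS and 109, 124, 152 and 170.0 CPM in MI. All MI libraries were higher, and the rise was 2.32-fold (log2 1.22 ± 0.29, edgeR adjusted p = 0.00724; 0.0687 against SS replicates 1 and 4 alone). The moDC marker sum given above was higher in the same MI macrophages, though Cd209a in it was lower. The part of moDCs in the rise was not tested. In cDC2 the SS libraries had 104, 147, 187 and 251 CPM and the MI libraries 344, 407 and 456 CPM. These were apart as well, with a rise of 2.34-fold (edgeR adjusted p = 0.00663). In moDCs the values were 114, 136, 151 and 175 CPM in SS and 183, 275, 264 and 271 CPM in MI. Although every MI library exceeded every SS library, the difference of 0.78 ± 0.28 (log2) did not pass with all libraries in the fit (edgeR adjusted p = 0.112) and passed with the moDC libraries alone (0.00977). In cDC1 the gene had 12.1 CPM or less and the states overlapped (log2 -0.32 ± 0.34, edgeR adjusted p = 0.685). The F test of a differing MI effect missed the threshold (edgeR adjusted p = 0.0827). It passed in DESeq2 (adjusted p = 0.00625), with the replicate block in edgeR (0.0348) and, also in edgeR, without MI cDC1 replicate 1 (0.0440), SS cDC1 replicate 3 (0.0214) or SS cDC2 replicate 4 (0.0378), while the single contrasts of macrophages and of cDC2 with cDC1 passed in edgeR (adjusted p = 0.0459 and 0.0496). In SS, cDC2 and moDCs were not shown to differ (adjusted p = 0.602), moDCs exceeded macrophages (0.00270) and macrophages exceeded cDC1 (4.44e-09). In MI the first 2 steps of that order did not pass (edgeR adjusted p = 0.162 and 0.0534), while macrophages stood above cDC1 (3.79e-12).

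**Figure D3:**
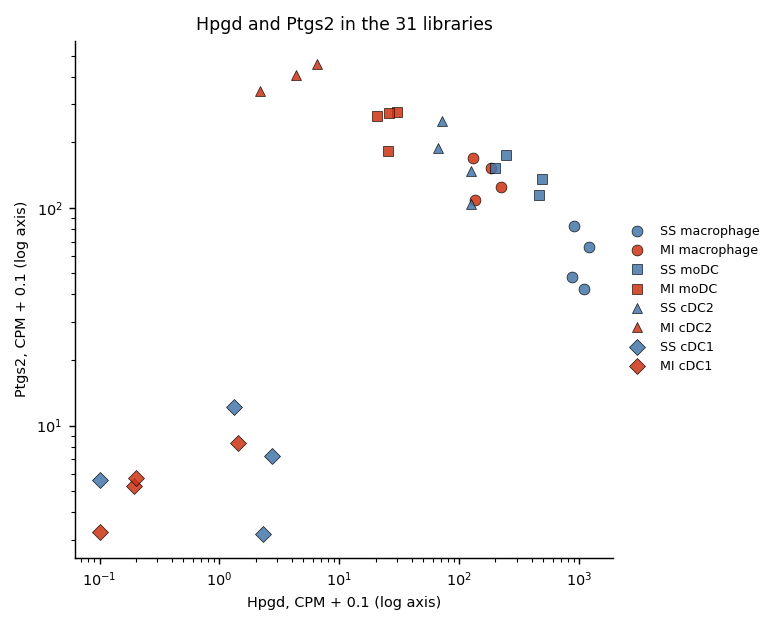
CPM + 0.1 of Hpgd (x axis) and Ptgs2 (y axis), both on log axes, with 1 point for each of the 31 libraries, shape giving the cell type and colour the state. In macrophages, moDCs and cDC2 the MI libraries lie to the left of and above the SS libraries of the same cell type, and all 8 cDC1 libraries lie at 2.63 CPM or less of Hpgd and 12.1 CPM or less of Ptgs2.

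The terminal synthases differed from the cyclooxygenases. Ptges codes for the inducible membrane-bound synthase of prostaglandin E2 (chr2:30889471-30929863, minus strand). It had 0 reads in all libraries of SS macrophages, MI cDC2 and both cDC1 groups. Its highest level was 2.85 CPM, in MI macrophage replicate 2, where 28 of the 31 reads of that group lay. No MI difference passed (edgeR adjusted p from 0.131 to 1.00 over the 4 cell types). At this depth Ptges was close to the limit of detection, so neither a rise nor a fall could be measured.

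Hpgds codes for the hematopoietic synthase of prostaglandin D2 (chr6:65117293-65144908, minus strand). In cDC2 the SS libraries had 9.91, 9.16, 11.4 and 8.15 CPM and the MI libraries 33.3, 25.9 and 23.6 CPM. The 3 MI libraries were all above the 4 SS libraries, and the gene rose 2.86-fold (log2 1.52 ± 0.24, edgeR adjusted p = 3.23e-05). In macrophages the values were 90.9, 86.3, 89.8 and 87.1 CPM in SS and 103, 78.3, 106 and 74.9 CPM in MI. They overlapped, with a log2 difference of 0.03 ± 0.21 (edgeR adjusted p = 0.972). moDCs (47.6 ± 10.6 CPM in SS, 51.9 ± 7.99 in MI, SD, n = 4) and cDC1 (3.72 ± 1.60 and 3.79 ± 1.17 CPM) overlapped likewise. The MI effect differed among the cell types (F test, edgeR adjusted p = 0.00430), and cDC2 differed from macrophages (0.00341), moDCs (0.0201) and cDC1 (0.00985). In both states the order was macrophages, moDCs, cDC2, cDC1 and every neighbour differed, with edgeR adjusted p of at most 0.00341 in SS and 0.0102 in MI. The mast cell list is of interest because mast cells make prostaglandin D2. In SS cDC2 it summed to 41.6 to 65.5 CPM, with a read for 9 of its 10 genes and Ms4a2 at 0. In MI cDC2 it summed to 141 to 184 CPM, where only 4 of its 10 genes had a read and Mcpt4, Cma1, Tpsb2, Tpsab1, Ms4a2 and Fcer1a were at 0. In cDC1, where Hpgds was lowest, the list summed to 178 to 286 CPM in SS and 289 to 337 CPM in MI. The part of mast cells in the Hpgds values was not tested.

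**Figure D4:**
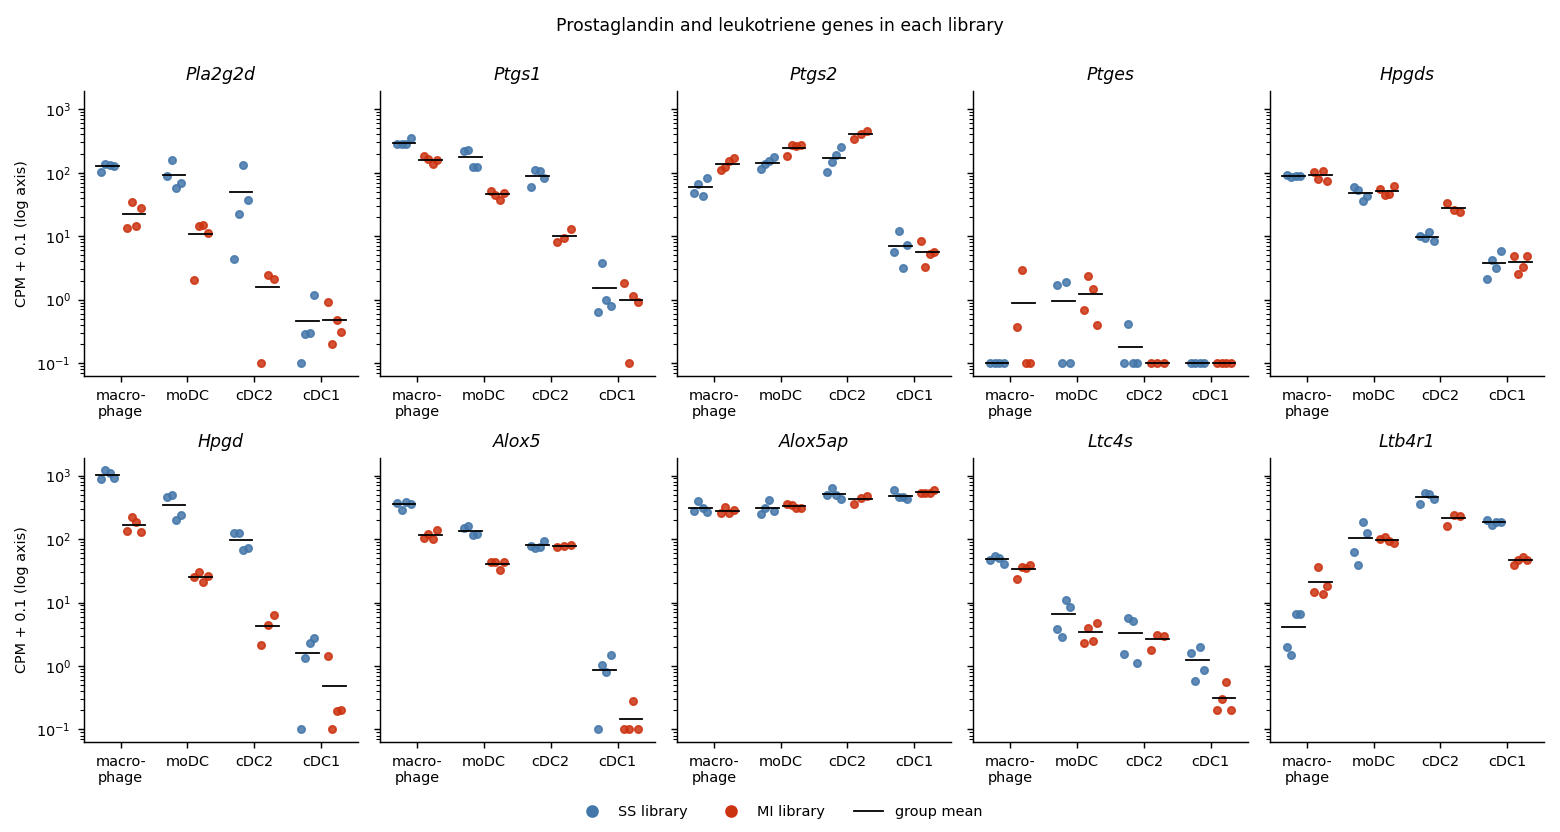
CPM + 0.1 (log axis) of the 10 genes in each library, in blue for SS and red for MI, with black bars at the group means and cell types along the x axis. Alox5ap stays between 247 and 646 CPM in every library, whereas Alox5 spans from 0 in cDC1 libraries to 389 CPM in an SS macrophage library.

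On the leukotriene side, Alox5 codes for the lipoxygenase that starts the synthesis of all leukotrienes (chr6:116410077-116461178, minus strand). In macrophages the libraries had 373, 292, 389 and 361 CPM in SS and 103, 121, 101 and 139 CPM in MI. The states were far apart, and the fall was 3.05-fold (log2 -1.61 ± 0.22, edgeR adjusted p = 1.08e-05). In moDCs the values were 147, 158, 114 and 119 CPM in SS and 43.1, 42.7, 32.2 and 44.1 CPM in MI, also apart, and the fall was 3.32-fold (edgeR adjusted p = 8.73e-06). In cDC2, by contrast, the SS libraries had 77.1, 71.5, 75.9 and 93.0 CPM and the MI libraries 75.04, 78.4 and 80.8 CPM. The MI libraries fell inside the SS range, with a log2 difference of -0.02 ± 0.24 (edgeR adjusted p = 0.976). In cDC1 31 reads in SS stood against 2 in MI, both in replicate 3, a ratio of summed counts of 12.9 (exact 95% interval 3.27 to 111, for counting error only; edgeR adjusted p = 0.00711; 0.0878 against SS replicates 1 and 4 alone). SS replicate 1 of cDC1 also had 0 reads, so the states overlapped.

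The MI effect on Alox5 differed among the cell types (F test, edgeR adjusted p = 6.41e-04). The effect in cDC2 differed from that in macrophages (-1.58 ± 0.32 for macrophages minus cDC2 on the log2 scale, adjusted p = 0.00231) and from that in moDCs (-1.71 ± 0.32, 0.00467), while macrophages and moDCs were not shown to differ (0.12 ± 0.31, adjusted p = 1.000). The order of the cell types was not the same in both states. In SS it was macrophages, moDCs, cDC2, cDC1, each above the next (edgeR adjusted p = 3.06e-05, 0.0160 and 1.17e-16). In MI cDC2 stood above moDCs (adjusted p = 0.00705) and was not shown to differ from macrophages (0.0767). In cDC2, where the macrophage marker sum was lower in MI as given above, the mean of Alox5 was 78.1 ± 2.91 CPM in MI (SD, n = 3) and 79.4 ± 9.40 CPM in SS (SD, n = 4). Of that sum, Fcgr1 was higher in MI, and Cd68 and Mertk overlapped. The part of macrophages in the Alox5 values of cDC2 was not tested.

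Alox5ap codes for the membrane protein that hands arachidonic acid to the lipoxygenase (chr5:149264767-149288153, plus strand). Its group means lay between 277 ± 29.8 CPM in MI macrophages and 551 ± 35.3 CPM in MI cDC1 (SD, n = 4). The states overlapped in all 4 cell types, with log2 differences of -0.16 ± 0.15 in macrophages, 0.08 ± 0.15 in moDCs, -0.27 ± 0.16 in cDC2 and 0.19 ± 0.15 in cDC1 (edgeR adjusted p from 0.299 to 0.846). In cDC1, which had next to no Alox5, Alox5ap exceeded that of macrophages in SS (1.56-fold, edgeR adjusted p = 5.71e-04) and in MI (1.99-fold, 1.17e-06), and that of moDCs in MI (1.66-fold, 1.41e-04). Both dendritic cell types exceeded moDCs in SS (edgeR adjusted p = 9.89e-04 for cDC1 and 8.03e-04 for cDC2), and neither cDC1 and cDC2 (0.722) nor moDCs and macrophages (0.972) were shown to differ. Exons of Alox5ap share 189 bp with the predicted gene Gm19719 on the other strand, with the same limit as for Ptgs1.

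Ltc4s codes for the synthase that joins the parent leukotriene to glutathione (chr11:50236461-50238616, minus strand). It was mainly a macrophage transcript: the libraries had 46.7, 54.9, 49.7 and 40.8 CPM in SS and 23.8, 35.8, 35.0 and 38.7 CPM in MI macrophages, against 10.8 CPM or less in every library of the other cell types. The macrophage states did not overlap, yet the difference did not pass (log2 -0.53 ± 0.40, edgeR adjusted p = 0.515). Macrophages exceeded moDCs in SS (adjusted p = 1.14e-05) and in MI (2.73e-06), and moDCs were not shown to differ from cDC2 (0.134 and 0.758, edgeR). In cDC1 57 reads in SS and 9 in MI gave a fall of 5.08-fold (edgeR adjusted p = 0.0199). That call ended without MI replicate 1, 2 or 4 or SS replicate 1 or 3 (adjusted p from 0.0595 to 0.0708), and the fall was 8.06-fold without MI replicate 3, which held 5 of the 9 reads. In the same cDC1 libraries the macrophage marker sum was 1759 to 2107 CPM in SS and 875 to 1164 CPM in MI. The resident macrophage sum there was 189 to 276 CPM in SS and 56.9 to 77.3 CPM in MI, with Vsig4 at 0 reads in MI, and the part of macrophages in the falls of Ltc4s and Alox5 in cDC1 was not tested. In a fit of cDC1 libraries alone, Ltc4s and Alox5 had too few reads to be tested. Exons of Ltc4s share 268 bp with the predicted gene Gm26542 on the other strand, again with strand use not given.

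Ltb4r1 codes for BLT1, the high-affinity receptor of leukotriene B4 (chr14:55765962-55768494, plus strand). The F test of an effect unequal between cell types gave the smallest adjusted p of the 10 members here (7.57e-05, edgeR). In macrophages the libraries had 1.91, 1.37, 6.45 and 6.51 CPM in SS and 14.3, 36.6, 13.6 and 18.3 CPM in MI. All MI libraries were higher, and the rise was 5.08-fold (log2 2.34 ± 0.44, edgeR adjusted p = 9.08e-04). In cDC1 the values were 202, 165, 183 and 184 CPM in SS and 39.0, 46.9, 51.3 and 47.4 CPM in MI. Here all MI libraries were lower, and the fall was 3.97-fold (log2 -1.99 ± 0.38, edgeR adjusted p = 8.79e-04). In cDC2 the SS libraries had 350.1, 525, 513 and 425 CPM and the MI libraries 162, 239 and 234 CPM. The states were apart, but the difference of -1.10 ± 0.40 (log2) missed the threshold with all libraries in the fit (edgeR adjusted p = 0.0772) and passed with the cDC2 libraries alone (0.00218). In moDCs the SS libraries spread from 38.4 to 182 CPM (62.6, 38.4, 182 and 126) around the MI libraries (99.5, 109, 91.9 and 85.2 CPM), with no difference that passed (log2 -0.08 ± 0.36, adjusted p = 0.950).

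The macrophage effect on Ltb4r1 differed from that in cDC1 by 4.33 ± 0.58 (log2, edgeR adjusted p = 2.51e-05) and from that in cDC2 by 3.44 ± 0.60 (6.23e-04). In SS cDC2 stood above cDC1 (adjusted p = 0.00780), cDC1 and moDCs were not shown to differ (0.0781), and moDCs stood above macrophages (3.27e-08, edgeR). In MI cDC2 and moDCs were not shown to differ (adjusted p = 0.0650), moDCs stood above cDC1 (0.0264) and cDC1 above macrophages (0.0144, edgeR). Beside the rise in macrophages, the moDC marker sum given above was higher in MI than in SS macrophages, though Cd209a in it was lower. Ccr2 of that sum was at 332 to 481 CPM in SS and 1776 to 2361 CPM in MI macrophages. Neutrophils carry much BLT1, so a list of 9 neutrophil genes was read beside Ltb4r1. It summed to 122 to 252 CPM in SS and 176 to 215 CPM in MI macrophages, and to 160, 198, 496 and 294 CPM in SS moDC replicates 1 to 4, highest in replicates 3 and 4, where Ltb4r1 was also highest. In MI moDCs the list summed to 128 to 147 CPM. In cDC2 it was lower in MI without overlap, at 72.1 to 165 CPM in SS and 23.0 to 36.9 CPM in MI, with S100a9 and Camp at 0 in MI. In cDC1 the list was at 9.10 CPM or less in SS and 2.37 CPM or less in MI, with 7 of its 9 genes at 0 in MI. In SS cDC1 the mural cell genes summed to 90.6 to 323 CPM and in MI cDC1 to 0.717 to 2.96 CPM; the part of these cells in the Ltb4r1 values was not tested.

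Among 63 other genes of these pathways, 62 were found in the files and 45 passed the filter. Of the 45, 3 rose and 2 fell in macrophages, 3 rose and 1 fell in moDCs, 5 rose and 6 fell in cDC2, and 3 rose and 1 fell in cDC1 (edgeR adjusted p under 0.05; the shares of all genes tested are given above for the same comparisons). Of the 7 prostanoid receptors tested, Ptger4, coding for the prostaglandin E2 receptor EP4, rose in macrophages (267 ± 13.8 against 147 ± 13.2 CPM, SD, n = 4, edgeR adjusted p = 2.21e-04). It also rose in moDCs (1.52-fold, edgeR adjusted p = 0.0107) and cDC2 (2.24-fold, 3.78e-06). The moDC call ended without SS replicate 2 (edgeR adjusted p = 0.0613) and against SS replicates 1 and 4 alone (0.0545). Ptger2, coding for the prostaglandin E2 receptor EP2 and named after its values were seen, fell 6.73-fold in cDC2 (2.61 ± 0.555 against 17.6 ± 4.26 CPM, edgeR adjusted p = 4.47e-04), with the states apart. Another of these receptors, Ptger3, was at 26 reads in SS and 0 in MI macrophages, at least 9.68-fold lower against 3 counts over the group, with overlapping libraries. Its call ended when any MI library or SS replicate 1 was left out in turn. Against SS replicates 2 and 3 alone it ended as well (edgeR adjusted p = 0.432). Of the 5 further genes of leukotriene synthesis, Dpep2, a dipeptidase that trims cysteinyl leukotrienes, rose in macrophages (142 ± 17.3 against 70.0 ± 1.29 CPM, edgeR adjusted p = 5.84e-06) and moDCs (1.91-fold, 3.33e-05) and fell in cDC1 (1.86-fold, 4.70e-05). Ggt5, which splits the glutathione part of leukotriene C4, rose in cDC2 (36.0 ± 11.2 against 6.99 ± 4.29 CPM, adjusted p = 1.53e-04) and in cDC1 (3.52-fold, 0.00341, edgeR).

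In cDC2, Tbxas1, the thromboxane synthase gene, fell 2.67-fold (80.1 ± 19.0 against 214 ± 48.8 CPM, edgeR adjusted p = 4.40e-07). Of the 8 phospholipases tested, Pla2g7, which codes for an enzyme that breaks down platelet-activating factor, fell 2.48-fold in cDC2 (6.90e-07) and rose 3.41-fold in cDC1 (27.9 ± 4.70 against 8.20 ± 1.65 CPM, edgeR adjusted p = 3.08e-09), and these effects were unequal by the F test (edgeR adjusted p = 1.41e-09). Pla2g16 fell in cDC2 (3.27-fold, edgeR adjusted p = 6.08e-06) and in macrophages (1.69-fold, 0.0217). The macrophage call ended without MI replicate 1, 3 or 4 or SS replicate 2 or 3. It also ended with the macrophage libraries alone (edgeR adjusted p = 0.0551) and against SS replicates 1 and 4 alone (0.230). Abcc4, a transporter that exports prostaglandins, rose in cDC1 (1.82-fold, 0.0187; 0.0570 without MI replicate 1 and 0.0596 without SS replicate 2) and in moDCs (1.84-fold, edgeR adjusted p = 0.0303), where the call ended without MI replicate 1, 2 or 4 or SS replicate 2 or 3, with the moDC libraries alone and against SS replicates 1 and 4 alone. In cDC2 Abcc4 also rose (61.7 ± 11.3 against 34.6 ± 5.16 CPM, 1.78-fold, edgeR adjusted p = 0.0291), with the states apart, and the call ended without MI replicate 2 or 3 or SS replicate 3 or 4 (adjusted p from 0.0522 to 0.169). Cyp4f18, which oxidises leukotriene B4, rose 4.33-fold in macrophages (edgeR adjusted p = 0.0406), a call that ended without MI replicate 2 or SS replicate 1, 2 or 3. It also ended against SS replicates 1 and 4 alone (edgeR adjusted p = 0.242) and without the filter on low counts (0.0658). Akr1c18 had 320 reads in SS and 1 in MI cDC2, with the states apart, a ratio of summed counts of 227 (exact 95% interval 40.5 to 9000, for counting error only; edgeR adjusted p = 0.0203). That call ended in DESeq2 (adjusted p = 0.146) and when any MI library or SS replicate 2 was left out in turn. In moDCs it was at 0 reads in MI against 90 in SS, with overlapping libraries, at least 25.7-fold lower against 3 counts over the group (edgeR adjusted p = 0.0328). There the call ended in 8 of 15 alternatives: in DESeq2, with the replicate block, against SS replicates 1 and 4 alone and when any MI library or SS replicate 3 was left out in turn (adjusted p from 0.0731 to 0.242). The values of Abcc4 and Akr1c18 in cDC2 were added after they were seen. No change of the 3 further lipoxygenase genes tested, Alox12, Alox15 and Alox8, passed in any of the 4 cell types (edgeR adjusted p from 0.0661, for Alox12 in moDCs, to 0.995, for Alox8 in cDC1).

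Counted by pair of cell types, the members passed as follows, each count beside the share of all genes tested (edgeR, either direction). In SS, macrophages differed from moDCs in 6 of 10 (12.9%), from cDC2 in 8 of 10 (35.2%) and from cDC1 in 9 of 10 (42.8%). moDCs differed in SS from cDC2 in 6 of 10 (15.4%) and from cDC1 in 9 of 10 (33.3%), and cDC2 from cDC1 in 8 of 10 (28.2%). The members that did not pass between SS cDC2 and cDC1 were Alox5ap and Ptges. In MI, macrophages differed from moDCs in 6 of 10 (10.8%), from cDC2 in 8 of 10 (26.4%) and from cDC1 in 10 of 10 (45.4%). moDCs differed in MI from cDC2 in 4 of 10 (10.1%), namely Alox5, Hpgd, Hpgds and Ptgs1, and from cDC1 in 10 of 10 (36.0%). cDC2 differed in MI from cDC1 in 7 of 10 (26.8%). The MI counts of 10 of 10 include Ptges, which had 31 reads in macrophages, 28 of them in 1 library, 46 in moDCs and 0 in cDC1. The effect of MI itself was unequal between macrophages and cDC2 in 4 of 10 (4.49%), Alox5, Hpgds, Ltb4r1 and Ptgs1, and between macrophages and cDC1 in 2 of 10 (4.04%), Ltb4r1 and Ptgs2. Between moDCs and cDC2 it was unequal in 2 of 10 (0.905%), Alox5 and Hpgds, and between cDC2 and cDC1 in 4 of 10 (4.21%), Alox5, Hpgds, Ptgs1 and Ptgs2. For macrophages and moDCs the edgeR count was 0 of 10 (0.291%), with 4 at an unadjusted p under 0.05, and for moDCs and cDC1 0 of 10 (1.79%), with 2. Ltb4r1 had the smallest adjusted p in both (0.0672 and 0.0583, edgeR).

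All 10 members differed among the 4 cell types in SS (F test, edgeR, against 50.1% of all genes tested) and in MI (against 47.5%), beside 34 of the 45 other pathway genes in SS and 29 in MI. The calls of Ptges rest on few reads and ended in DESeq2 (adjusted p = 0.1102 in SS and 0.143 in MI). With the replicate block in edgeR they ended as well (adjusted p = 0.0923 in SS and 0.0527 in MI). In SS the call ended in 6 alternatives and held in 17, and in MI it ended in 10 and held in 11. As a description, the log2 CPM of Hpgd went with that of Ptgs1 (Pearson r = 0.96), Pla2g2d (0.93) and Alox5 (0.90) over the 31 libraries, which share cell type, state and sort, while Ptgs2 and Hpgd had r = 0.60 and Ltb4r1 and Hpgds -0.55. Among 12285 named genes, those most like each member over the same libraries were Cdr2 (0.98), Lilra5 (0.97) and Ptgs1 (0.96) for Hpgd, Lilra5 (0.98), Ccl24 (0.97) and F13a1 (0.97) for Ptgs1, Crym (0.94), Mmp9 (0.93) and Hpgd (0.93) for Pla2g2d and Ccrl2 (0.98), Osm (0.97) and Sirpb1a (0.96) for Ptgs2. For the others they were Csf1r (0.97), Abca9 (0.97) and Pltp (0.97) for Alox5, Tgfbr2 (0.98), Cyfip1 (0.97) and Prune2 (0.97) for Hpgds, Ednrb (0.93), C4a (0.93) and Mcfd2 (0.92) for Ltc4s, Nt5c (0.93), Rps9 (0.93) and Ndufa6 (0.92) for Alox5ap and L1cam (0.96), Tmem154 (0.94) and Ezr (0.93) for Ltb4r1. For Ptges no gene exceeded 0.72, in counts too low to read.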

How the data were processed

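The authors' deposited files hold whole-number read counts per gene symbol for each library, not normalised. Per the labels' protocols, 4 ng of RNA was amplified with SMART-Seq v4 and read as 75 nt single reads; the submitters' processing notes name TopHat2 2.1.0, SAMtools 0.1.18, FastQC 0.11.4 and Trimmomatic 0.35 among the authors' tools, and mm10 as the build. Counting tool, annotation and strand use: not given in the sources used here. Reads in no feature (6.42% to 16.9% of counted entries) and ambiguous reads (0.857% to 1.21%) were left out. Reads in no feature made up 11.6% to 16.9% in SS replicates 1 and 4 of the 4 cell types. They made up 6.42% to 9.26% in SS replicates 2 and 3 and 6.85% to 10.9% in MI libraries. The settings with SS replicates 1 and 4 alone, or 2 and 3 alone, divide the SS libraries along this line.

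Members, lists and named genes (all 10 members, up to 5 changed pathway genes per comparison, 3 most alike genes per member) were chosen with earlier results of these data known; 1 macrophage marker of the original list is not reported here. Tests used edgeR 4.0.16 in R 4.3.3: robust quasi-likelihood fits with TMM factors, 8 group means over 31 libraries, filterByExpr (minimum count 10), 13039 genes, Benjamini-Hochberg adjusted p under 0.05. The edgeR fit was also run on simulated counts, for MI against SS in macrophages only. Simulated libraries were independent, so that run does not cover same-numbered SS libraries going together, other cell types or tests of unequal effects. Alternatives included DESeq2 1.42.0. Likeness used log2 CPM with a prior count of 2. RPKM and positions used GENCODE M21 (GRCm38); 9 of 10 promoters matched RefSeq (GRCm38.p6). Folds against 0 reads use 3 counts over the group; such limits and the 95% interval cover counting error only, since PCR copies are not independent molecules.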

Additional observations from a re-analysis of the deposited data

Results flagged for a closer look

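The change after MI differed among the 4 cell types for 4 of the 10 genes by an F test of the difference itself (edgeR), against 6.80% of all genes tested. These were Ltb4r1 (edgeR F test, adjusted p = 7.57e-05), Alox5 (6.41e-04), Hpgds (0.00430) and Ptgs1 (0.0116). Ltb4r1 rose in macrophages and fell in cDC1, Hpgds rose in cDC2, and Ptgs1 fell in moDCs and cDC2. Alox5 fell in macrophages, moDCs and cDC1, in cDC1 on 31 reads in SS and 2 in MI.

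In 9 of 67 groups of 4 libraries with unequal values, 1 library stood apart from the other 3, measured against the range of the group. Chance gives about 1 in 20 where values are normally distributed. Groups with few reads, such as Ptges in SS cDC2 and Alox5 in MI cDC1, are not, so the 9 are not read as an excess over chance. For Ptgs1 the libraries set apart were SS macrophage replicate 4 (348 CPM, highest) and SS cDC1 replicate 2 (3.70 CPM, highest). For Ptgs2 it was MI moDC replicate 1 (183 CPM, lowest). Ptges stood out in MI macrophage replicate 2 (2.85 CPM) and in SS cDC2 replicate 2 (0.319 CPM), where the other libraries of the group had 3 reads or fewer. Hpgd was highest in MI cDC1 replicate 1 (1.34 CPM). Alox5 was lowest in MI moDC replicate 3 (32.2 CPM) and highest in MI cDC1 replicate 3 (0.186 CPM, 2 reads). Alox5ap was highest in MI cDC1 replicate 4 (603 CPM).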

How the results depend on the processing

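The numbers of members that passed after MI (5 in macrophages, 4 in moDCs, 5 in cDC2, 3 in cDC1) stayed within 1.5 times under the alternatives run, with 1 exception: a fit of the cDC1 libraries alone gave 1, since Alox5 and Ltc4s then had too few reads to be tested. Leaving out 1 library at a time gave 4 to 5 in macrophages, 4 in moDCs, 5 in cDC2 and 2 to 3 in cDC1, 4 to 5 for effects unequal between cell types, and 9 to 10 for levels differing in SS and in MI. The replicate block, with the number in the titles as a term, gave 5, 4, 5 and 3 after MI, 5 for unequal effects, and 9 in SS and 9 in MI. The main fit does not take the numbers as pairs. Deviations of same-numbered libraries had a correlation over 0.1 in 14 of 24 pairs of cell types in SS, against 3 of 72 with different numbers. Same-numbered SS libraries thus went together, and the main fit takes them as independent. In MI the counts were 1 of 21 and 0 of 63, and between states 0 of 15 and 0 of 45. Over all genes tested, MI calls numbered 407 without SS moDC replicate 2 (631 with it), 882 and 923 without MI cDC2 replicate 1 and 2 (1440 with them), and 583 in place of 887 for unequal effects against SS replicates 1 and 4 alone. Where the change of a named gene after MI passed in at least 1 setting, its direction did not reverse. Directions of other changes were not compared. The calls of Pla2g2d in macrophages and moDCs, Ltc4s and Alox5 in cDC1 and Ptgs2 in macrophages ended in the settings given beside them. Depth limits Ptges in every group and Hpgd, Pla2g2d, Ptgs1, Alox5 and Ltc4s in cDC1, with 64 reads or fewer in each state.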
